A study of Homo sapiens with 4 samples.

Results

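Collagen genes and the genes for the enzymes that modify collagen were followed in 2 HCT116 libraries with FOXD2 and 2 with an empty vector. The set holds every gene whose symbol names a collagen alpha chain, except COL7A1 and COL17A1, together with 3 prolyl 4-hydroxylase subunits, 3 lysyl hydroxylases, 5 lysyl oxidases and the collagen chaperone SERPINH1. This gave 54 of the 60683 gene identifiers in the tables, of which 42 encode collagen chains. HCT116 is an established line from a human colorectal carcinoma. All cells had taken up a pSin lentivirus, carrying the full-length coding sequence of the forkhead transcription factor FOXD2 or nothing, and all were kept in puromycin, so the control cells carry the vector and the selection too. The cells are pooled stable transductants of 1 line, and nothing in the labels tells whether each replicate had its own culture or transduction. The p-values below therefore set each group difference only against the spread among these libraries, which may be technical. The fit estimates that spread with help from all genes tested.

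Collagens are proteins of 3 alpha chains wound into a triple helix. The chains are hydroxylated on proline and lysine in the endoplasmic reticulum, folded with the help of SERPINH1, secreted, trimmed, and crosslinked outside the cell by lysyl oxidases. Some types are built from a single kind of chain, and others from different partner chains. For the latter, which chains a cell transcribes together sets which trimers it could build. In the gut wall, fibroblasts make most of the fibrillar collagen, and epithelial cells rest on a basement membrane built on type IV collagen.

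Libraries held 14231368 to 15535845 counts. FOXD2 itself, the check of the labels, was at 526 and 479 CPM (counts relative to the library total, scaled by TMM) in FOXD2 libraries, against 3.50 and 2.78 CPM in empty vector libraries (log2 fold change 7.32, SE 0.10, edgeR adjusted p = 4.7e-49). Counts assigned to FOXD2 may pool the delivered sequence with the cells' own gene. Of 8 epithelial markers, 7 passed the filter on low counts (edgeR's filterByExpr, near 0.676 CPM in at least 2 libraries), and the list summed to 8854 and 8345 CPM in FOXD2 libraries, against 4552 and 4660 CPM in empty vector libraries, most of it from the keratins KRT8, KRT18 and KRT19. CDH1, EPCAM, CLDN4 and the 3 keratins rose, the intestinal transcription factor CDX2 fell (-0.51, SE 0.13), and the brush border gene VIL1 was near 0. Of 11 fibroblast markers other than collagens, 6 (DCN, LUM, PDGFRA, THY1, FAP and POSTN) had no count in any library. Of the 3 that were tested, ACTA2 rose and FN1 and TAGLN fell. The whole fibroblast list summed to 23.9 and 25.6 CPM in FOXD2 libraries, against 28.8 and 28.3 CPM in empty vector libraries. In TPM the order was the opposite, with 19.3 and 17.7 in FOXD2 libraries, against 16.2 and 16.5 in empty vector libraries. Of 7 blood and endothelial markers, PTPRC, CDH5 and HBB had no count, and the list summed to 45.1 and 36.2 CPM in FOXD2 libraries, against 6.15 and 6.89 CPM in empty vector libraries. The largest part of that sum was CD68, at 42.3 and 35.5 CPM in FOXD2 libraries, against 4.51 and 5.30 CPM in empty vector libraries. VWF and HBA1 were also tested and did not pass (edgeR adjusted p = 0.11 and 0.77), so the rise of the sum is mainly that of CD68. The part of these marker levels in the collagen results was not tested.

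Of the 54 genes, 27 passed the filter and were tested. In FOXD2 cells 16 were higher and 3 lower (edgeR adjusted p under 0.05), and 8 did not pass. Of all 14470 genes tested, 27.2% were higher and 26.4% lower, so that calls in either direction were common throughout the transcriptome. Among the 17 collagen chains tested, 12 were higher and only COL12A1 was lower, whereas of the 10 enzyme and chaperone genes 4 were higher and 2 lower. At least 2-fold rises were found for 8 members, against 8.2% of all genes tested, and no member fell that far, against 2.79% of all genes. The median log2 fold change was 0.46 over the tested members and 0.01 over all genes. COL6A3 and COL4A6 passed the filter through the FOXD2 libraries, with fewer than 2 empty vector libraries at the level the filter asks for, so such counts and medians describe the tested genes and not the whole family. The 4 values did not overlap between groups for 24 of the 27 members, which was so for 76.1% of all genes tested.

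**Figure D1:**
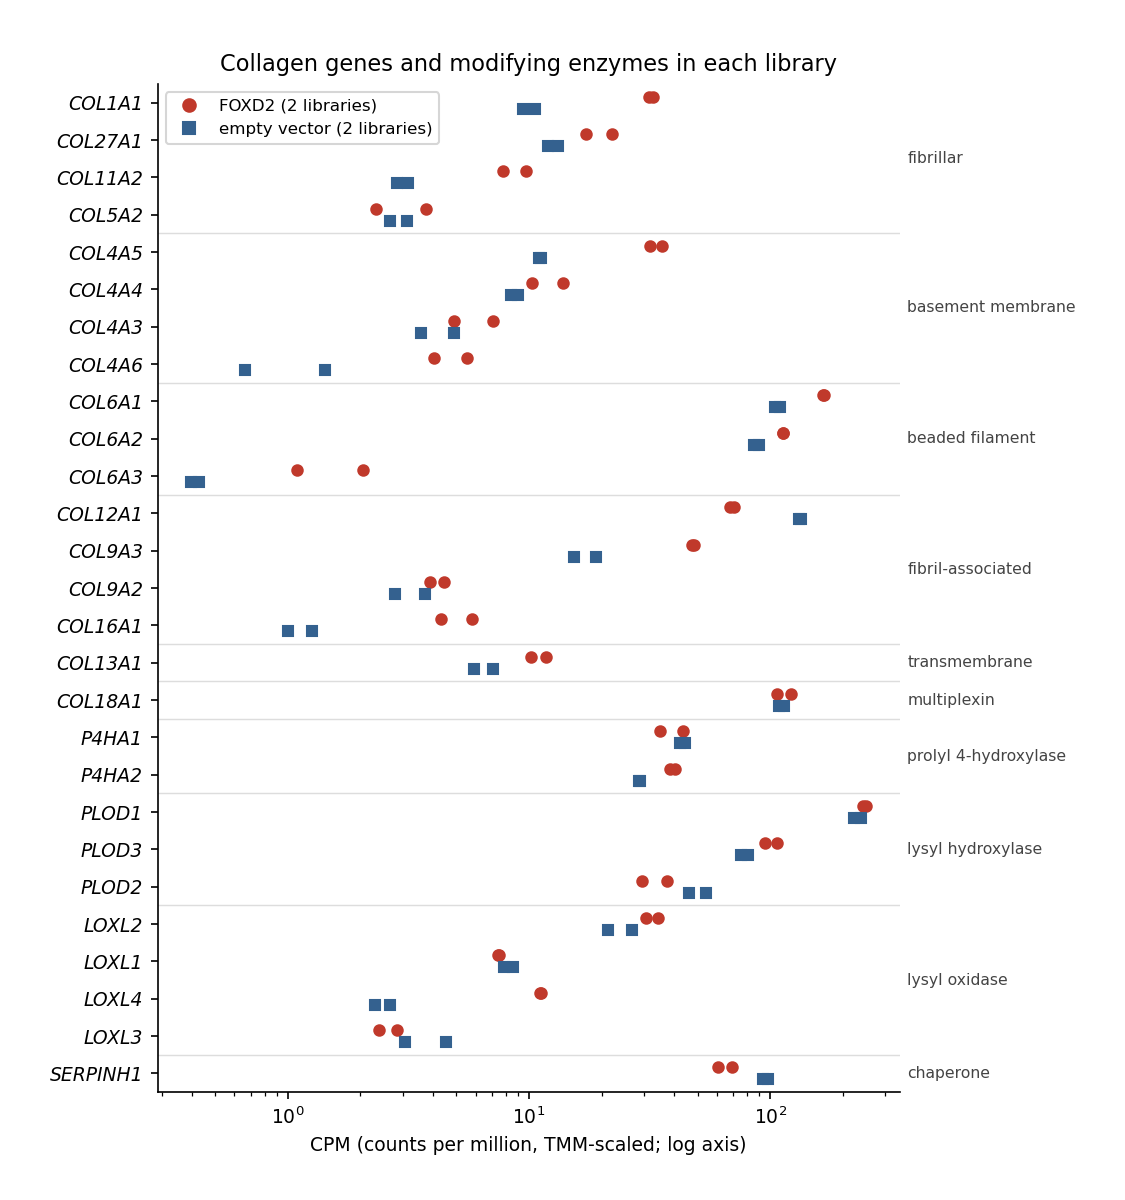
CPM on a log axis for the 27 tested members, with red circles for the 2 FOXD2 libraries and blue squares for the 2 empty vector libraries, ordered by role and level. COL1A1, COL4A5, COL9A3 and LOXL4 stand clear of their empty vector values to the right, COL12A1, PLOD2 and SERPINH1 to the left, and COL18A1, P4HA1 and COL5A2 overlap.

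Per length, PLOD1 led the tested members, with a mean of 116.5 ± 4.40 TPM in FOXD2 cells and 107.0 ± 7.46 TPM in empty vector cells (TPM of the authors, SD, n = 2 each). In FOXD2 cells PLOD3 (76.7 ± 4.41 TPM) and COL6A1 (70.9 ± 0.219 TPM) came next and lay within 2 SD of the noisier gene, whereas in empty vector cells SERPINH1 (70.2 ± 2.98 TPM) came next, above PLOD3 (56.5 ± 1.22 TPM). COL6A1 and COL6A2 were the collagen chains with the highest mean TPM in both groups. The next places changed: COL9A3 averaged 41.9 TPM and COL18A1 32.7 TPM in FOXD2 cells, and COL18A1 30.0 TPM, COL12A1 22.2 TPM and COL9A3 14.1 TPM in empty vector cells. COL6A3 had the lowest mean TPM of the tested chains in both groups, followed by COL5A2 (0.70 ± 0.028 TPM) in FOXD2 cells and by COL4A6 (0.345 ± 0.304 TPM) in empty vector cells. Around the mean of 1 CPM above which members are described one by one, COL4A6 (2.92 CPM), COL5A2 (2.95 CPM) and COL16A1 (3.09 CPM) lay just above, and COL6A3 (0.992 CPM), P4HA3 (0.575 CPM) and COL5A3 (0.333 CPM) just below.

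The 27 members that were not tested were almost silent. COL1A2, COL6A5, COL8A1, COL8A2, COL9A1, COL10A1, COL22A1 and the founding lysyl oxidase LOX had no count in any library, which allows up to 0.193 to 0.215 CPM. Another 13 (COL2A1, COL4A1, COL4A2, COL5A1, COL6A6, COL11A1, COL14A1, COL19A1, COL20A1, COL21A1, COL23A1, COL24A1 and COL28A1) had at most 3 counts in each library. P4HA3, a minor prolyl 4-hydroxylase subunit, had 10 and 9 counts in FOXD2 libraries, against 9 and 6 in empty vector libraries. COL3A1, the fibrillar chain that goes with type I collagen in elastic tissues, had 6 and 5 counts in FOXD2 libraries, against 1 and 4 in empty vector libraries. COL5A3, COL15A1, COL25A1 and COL26A1 reached at most 10, 5, 4 and 5 counts in any library. At this depth no difference between groups could be read for these genes.

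Fibrillar collagens form the striated fibrils of connective tissue. Of 11 such genes 4 were tested, and COL1A1, COL11A2 and COL27A1 rose. COL1A1, the alpha 1 chain of type I collagen, had 31.4 and 32.8 CPM in FOXD2 libraries, against 9.44 and 10.6 CPM in empty vector libraries (log2 fold change 1.68, SE 0.12, edgeR adjusted p = 1e-17). Its partner COL1A2 had 0 counts in all 4 libraries, so the alpha 1 chain was transcribed at these levels with no detectable alpha 2 chain in either group. COL11A2, a chain of cartilage type XI collagen, had 7.84 and 9.70 CPM in FOXD2 libraries, against 3.15 and 2.85 CPM in empty vector libraries (1.55, SE 0.21, edgeR adjusted p = 1.1e-08). The other type XI gene, COL11A1, had a single count in all. COL27A1, a cartilage fibrillar collagen, had 17.2 and 22.1 CPM in FOXD2 libraries, against 12.02 and 13.2 CPM in empty vector libraries (0.64, SE 0.13, edgeR adjusted p = 5.5e-05), and did not pass with limma on TPM (adjusted p = 0.19 or 0.18 with a pseudocount of 0.1 or 1). COL5A2, a type V chain that helps start type I fibrils, was at 3.73 and 2.32 CPM in FOXD2 libraries, against 2.65 and 3.11 CPM in empty vector libraries. These values overlapped, and an approximate 95% interval of its log2 fold change ran from -0.48 to 0.63. In RNA of whole cultures, fewer cells that express a gene and less RNA per cell cannot be told apart.

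Type IV collagen is the sheet-forming collagen of basement membranes, and its 6 genes lie as 3 head-to-head pairs. The common pair, COL4A1 and COL4A2, was near silent, with 3 and 2 counts of COL4A1 in FOXD2 libraries, against 2 and 1 in empty vector libraries, and no more than 2 counts of COL4A2 in any library. The X-linked pair rose. COL4A5, mutated in Alport nephropathy, had 35.7 and 31.6 CPM in FOXD2 libraries, against 11.2 and 11.0 CPM in empty vector libraries (log2 fold change 1.60, SE 0.12, edgeR adjusted p = 2.4e-17). COL4A6, its neighbour, had 4.05 and 5.53 CPM in FOXD2 libraries, against 1.43 and 0.662 CPM in empty vector libraries (2.20, SE 0.33, edgeR adjusted p = 1.3e-07), and its log2 fold change ran from 1.73 without empty vector replicate 2 to 2.84 without empty vector replicate 1. Both genes were higher in each FOXD2 library than in either empty vector library, and the TPM of COL4A5 was 9.89 and 9.72 times that of COL4A6 in FOXD2 libraries, against 11.7 and 40.4 times in empty vector libraries, where COL4A6 rested on 20 and 10 counts and its effective length was 3286 and 6318 bases. In CPM the ratios were 8.83 and 5.72 in FOXD2 libraries, against 7.85 and 16.6 in empty vector libraries, and overlapped. The effective length of COL4A5 also differed, at 3753 and 2957 bases in FOXD2 libraries, against 2183 and 2601 bases in empty vector libraries. With limma on TPM its log2 fold change was smaller, 1.14 and 1.03 with a pseudocount of 0.1 and 1, and still passed.

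Of the pair on chromosome 2, COL4A4 passed and COL4A3 did not. COL4A4 had 10.3 and 13.8 CPM in FOXD2 libraries, against 8.44 and 9.01 CPM in empty vector libraries (log2 fold change 0.46, SE 0.16, edgeR adjusted p = 0.012). It no longer passed without FOXD2 replicate 2 (adjusted p = 0.29), without empty vector replicate 1 (0.080), with DESeq2 (0.20) or with limma on TPM (0.28 and 0.24). COL4A3 had 4.88 and 7.11 CPM in FOXD2 libraries, against 4.86 and 3.58 CPM in empty vector libraries, and did not pass (0.51, SE 0.22, edgeR adjusted p = 0.052). It passed without FOXD2 replicate 1 (0.0094), without empty vector replicate 1 (0.025) and with library totals as the scale (0.039). Levels of both genes were highest in FOXD2 replicate 2, and those of COL4A3 in FOXD2 replicate 1 and empty vector replicate 1 were nearly equal.

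The pair COL4A6 and COL4A5 is shown with its intervening sequence, since both genes rose and share 1 stretch of DNA. In RefSeq (GRCh38.p14) 379 bases separate their starts, and in GENCODE release 29, which covers GRCh38 as well, the 2 genes end 346 bases apart, while for COL4A4 and COL4A3 the RefSeq starts are 418 bases apart and the GENCODE ends 111 bases. Each sequence below is written 5′ to 3′ on the strand of its gene, without bases that GENCODE places in an exon, and its capitals mark CCAAT or its reverse complement ATTGG. The first is chrX:108439588-108439837 (plus strand) and the second chrX:108439498-108439708 (minus strand), and they share 121 bases, so a CCAAT pair appears in both.
COL4A5: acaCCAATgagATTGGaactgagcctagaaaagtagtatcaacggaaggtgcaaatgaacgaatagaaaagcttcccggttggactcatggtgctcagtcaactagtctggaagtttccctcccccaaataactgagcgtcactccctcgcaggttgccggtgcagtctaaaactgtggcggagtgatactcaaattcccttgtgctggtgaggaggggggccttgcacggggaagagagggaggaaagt
COL4A6: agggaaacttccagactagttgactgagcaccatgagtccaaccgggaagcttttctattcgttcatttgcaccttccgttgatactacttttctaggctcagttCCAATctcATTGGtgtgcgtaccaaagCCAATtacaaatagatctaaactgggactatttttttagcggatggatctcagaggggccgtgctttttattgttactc

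**Figure D2:**
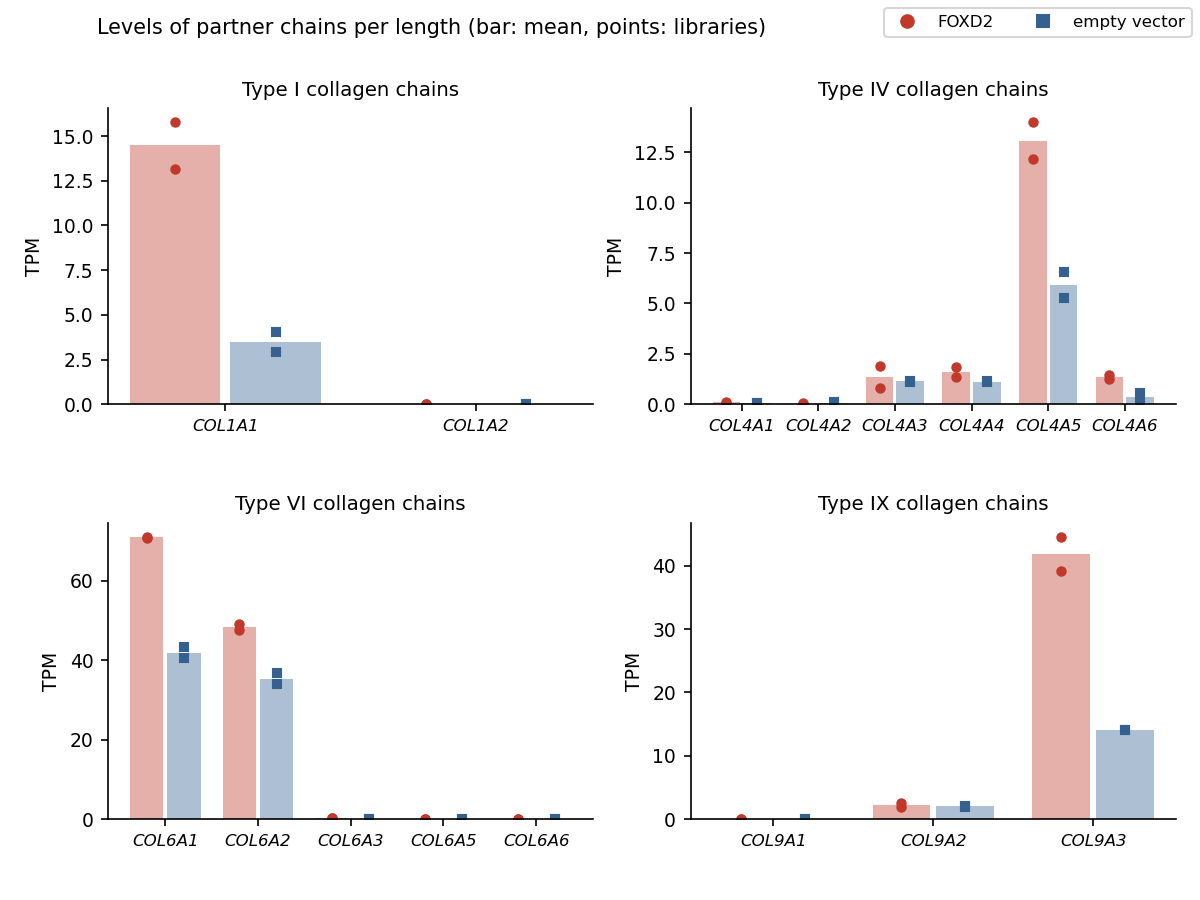
TPM of the chains of collagen types I, IV, VI and IX, with bars for the mean of 2 libraries and points for each library, FOXD2 in red to the left of empty vector in blue, each panel on its own axis from 0. COL1A2, COL9A1, COL6A5 and COL6A6 stay at or near 0 beside partners that are high, as do COL4A1 and COL4A2 beside COL4A5.

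Type VI collagen forms beaded filaments from 1 chain each of COL6A1, COL6A2 and usually COL6A3. COL6A1 and COL6A2, neighbours on chromosome 21 that lie 93046 bases apart on the same strand, were the collagen chains with the highest TPM, and both rose. COL6A1 had 168 and 166 CPM in FOXD2 libraries, against 109.8 and 105 CPM in empty vector libraries (log2 fold change 0.64, SE 0.07, edgeR adjusted p = 2.9e-12). COL6A2 had 113.3 and 112.7 CPM in FOXD2 libraries, against 89.9 and 85.4 CPM in empty vector libraries (0.37, SE 0.07, edgeR adjusted p = 1.1e-05). The TPM ratio of COL6A1 to COL6A2 was 1.48 and 1.45 in FOXD2 libraries, against 1.17 and 1.19 in empty vector libraries, without overlap, though with 2 libraries a side an exact two-sided permutation test cannot go below 0.333. COL6A3, the large remaining chain, was far below its partners, with 17 and 30 counts in FOXD2 libraries, against 6 and 6 counts in empty vector libraries. It passed (1.90, SE 0.49, edgeR adjusted p = 0.00083) but not without FOXD2 replicate 2 (0.068), with DESeq2 (0.075) or with limma on TPM (0.14 and 0.28).

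Collagens that sit on fibril surfaces went both ways: of 10 such genes 4 were tested, COL9A3 and COL16A1 rose, and COL12A1 fell. COL12A1, which links fibrils to their surroundings in tendon and other loaded tissue, was the only collagen chain to fall. It had 68.4 and 70.6 CPM in FOXD2 libraries, against 133.9 and 132 CPM in empty vector libraries (log2 fold change -0.94, SE 0.07, edgeR adjusted p = 5e-17). COL9A3, a chain of cartilage type IX collagen, had 47.5 and 48.5 CPM in FOXD2 libraries, against 19.0 and 15.3 CPM in empty vector libraries (1.49, SE 0.10, edgeR adjusted p = 2.3e-18). Its partners did not match it: COL9A1 had no count, and COL9A2 had 4.43 and 3.89 CPM in FOXD2 libraries, against 3.72 and 2.78 CPM in empty vector libraries, and did not pass (0.36, approximate 95% interval -0.14 to 0.87). COL16A1 had 4.30 and 5.81 CPM in FOXD2 libraries, against 1.001 and 1.26 CPM in empty vector libraries (2.15, SE 0.31, edgeR adjusted p = 3.5e-08). Both FOXD2 libraries thus lay above both empty vector libraries for COL9A3 and COL16A1, and below them for COL12A1.

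COL13A1, a transmembrane collagen of cell contacts and the neuromuscular junction, had 10.2 and 11.8 CPM in FOXD2 libraries, against 7.08 and 5.90 CPM in empty vector libraries (log2 fold change 0.76, SE 0.17, edgeR adjusted p = 0.00012). COL18A1, the basement membrane collagen whose end piece is endostatin, had 122 and 107 CPM in FOXD2 libraries, against 109 and 114 CPM in empty vector libraries. These overlapped, and an approximate 95% interval of its log2 fold change ran from -0.10 to 0.18. The gene on the opposite strand, SLC19A1, covers 16.4% of the exon bases of COL18A1 and had 848 and 722 counts in FOXD2 libraries, against 923 and 967 in empty vector libraries. Since the strand setting of the counting is not given in the sources used here, part of the COL18A1 value is uncertain.

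**Figure D3:**
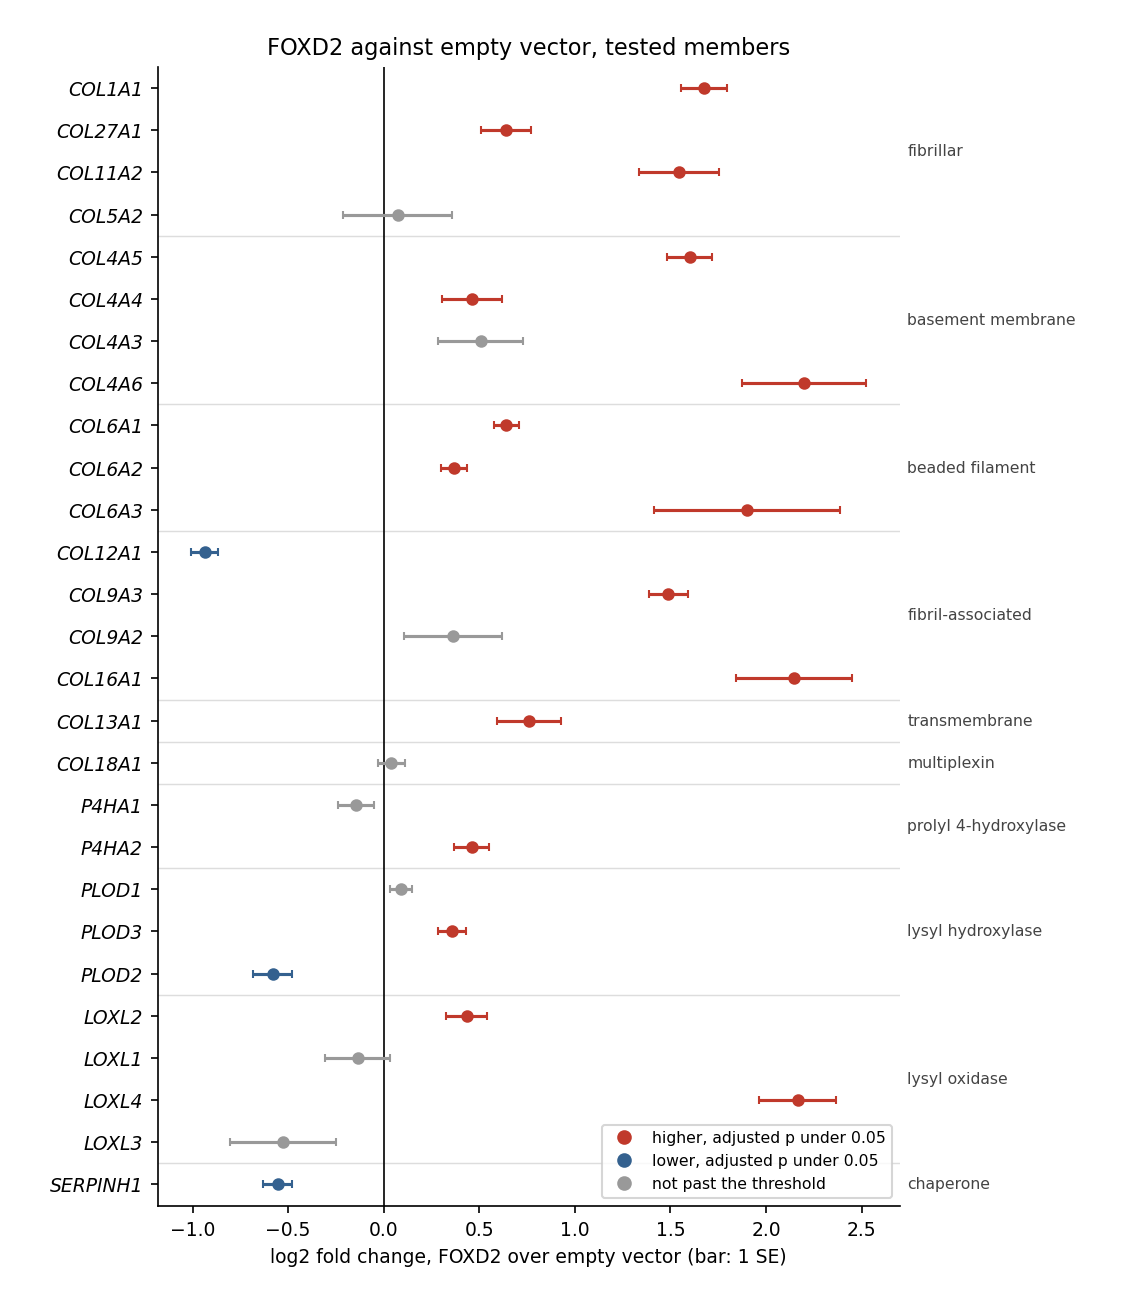
Log2 fold change of FOXD2 over empty vector for the 27 tested members, by role, with bars of 1 SE from the edgeR fit; red and blue mark genes higher and lower past the threshold, grey those that did not pass. COL4A6, LOXL4, COL16A1 and COL6A3 lie farthest right, and COL12A1, PLOD2 and SERPINH1 are the 3 called genes left of 0. COL4A6 and COL6A3 passed the filter through the FOXD2 libraries.

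Summed over the 42 collagen chains, TPM was 256 and 272 in FOXD2 libraries, against 173 and 165 in empty vector libraries. The relative rise was smaller in CPM, with sums of 657 and 655 in FOXD2 libraries, against 528 and 518 in empty vector libraries. The make-up differed as well as the sum. COL12A1 held 4.85% and 4.28% of the TPM sum in FOXD2 libraries, against 12.2% and 14.1% in empty vector libraries. COL9A3 held 15.3% and 16.4% in FOXD2 libraries, against 8.16% and 8.48% in empty vector libraries. COL6A1, COL6A2, COL18A1 and COL12A1 together made up 64.6% and 59.7% in FOXD2 libraries, against 75.0% and 78.1% in empty vector libraries, so the other chains held a larger share in FOXD2 libraries. These shares did not overlap between groups, but were not tested.

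**Figure D4:**
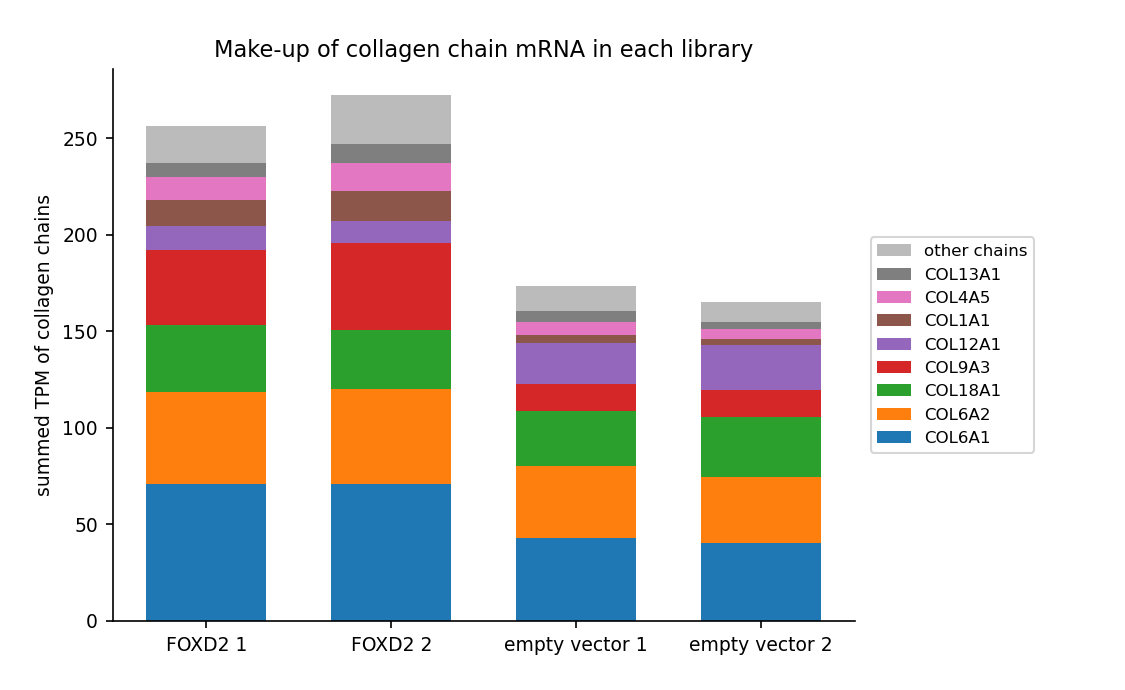
Summed TPM of the 42 collagen chains in each library, FOXD2 libraries on the left, stacked by chain from COL6A1 at the bottom, with all other chains in light grey. The purple COL12A1 layer is thinner in the 2 FOXD2 libraries and the red COL9A3 layer thicker, on a total of 256 and 272 TPM against 173 and 165 TPM.

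Prolyl 4-hydroxylase makes the hydroxyproline that keeps the triple helix stable at body temperature, and its catalytic alpha subunit comes in alternative forms. P4HA2 had 40.3 and 38.5 CPM in FOXD2 libraries, against 28.9 and 28.5 CPM in empty vector libraries (log2 fold change 0.46, SE 0.09, edgeR adjusted p = 3.4e-05). P4HA1 had 35.0 and 43.5 CPM in FOXD2 libraries, against 44.6 and 42.1 CPM in empty vector libraries, and did not pass (-0.15, SE 0.09, edgeR adjusted p = 0.19). It was lower in FOXD2 replicate 1 alone, and passed as lower (adjusted p = 0.0072) without FOXD2 replicate 2. The TPM of P4HA1 was 0.738 and 0.969 times that of P4HA2 in FOXD2 libraries, against 1.26 and 1.27 times in empty vector libraries. Per length, P4HA2 thus lay above P4HA1 in both FOXD2 libraries, and P4HA1 above P4HA2 in both empty vector libraries. In FOXD2 replicate 2 their TPM were close (23.3 for P4HA2 against 22.5 for P4HA1), and CPM had the opposite order. The FOXD2 means, 23.7 ± 0.552 TPM for P4HA2 and 20.1 ± 3.39 TPM for P4HA1, lay within 2 SD of the noisier gene.

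Lysyl hydroxylases prepare lysines for crosslinks and sugars, with PLOD1 acting on the helix, PLOD2 on the short telopeptides at its ends, and PLOD3 also adding sugars. PLOD2 had 29.4 and 37.4 CPM in FOXD2 libraries, against 54.0 and 45.9 CPM in empty vector libraries (log2 fold change -0.58, SE 0.10, edgeR adjusted p = 3.6e-05). PLOD3 had 106 and 94.98 CPM in FOXD2 libraries, against 75.9 and 81.3 CPM in empty vector libraries (0.36, SE 0.07, edgeR adjusted p = 4.3e-05). PLOD1 had 242 and 250.4 CPM in FOXD2 libraries, against 239 and 223 CPM in empty vector libraries, and did not pass (0.09, approximate 95% interval -0.03 to 0.21), except with library totals as the scale (adjusted p = 0.023). The telopeptide enzyme therefore held 5.27% and 6.92% of the TPM of the 3 genes in FOXD2 libraries, against 11.8% and 9.93% in empty vector libraries. PLOD3 shares 7.56% of its exon bases with ZNHIT1 on the opposite strand, which had 766 and 694 counts in FOXD2 libraries, against 485 and 626 in empty vector libraries.

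Lysyl oxidases oxidise lysines of secreted collagen and elastin to start crosslinks. LOXL4 had 11.2 and 11.1 CPM in FOXD2 libraries, against 2.29 and 2.65 CPM in empty vector libraries (log2 fold change 2.16, SE 0.20, edgeR adjusted p = 2.1e-13). LOXL2, which acts on type IV collagen, had 30.6 and 34.3 CPM in FOXD2 libraries, against 26.7 and 21.3 CPM in empty vector libraries (0.43, SE 0.11, edgeR adjusted p = 6e-04). Leaving out empty vector replicate 2 (adjusted p = 0.084) ended this call, as did limma on TPM (0.089 and 0.087). LOXL4 went with a larger share of the TPM of LOXL1 to LOXL4, 15.2% and 12.3% in FOXD2 libraries, against 3.52% and 4.33% in empty vector libraries. LOXL1, needed for elastic fibres, had 7.52 and 7.45 CPM in FOXD2 libraries, against 8.58 and 7.88 CPM in empty vector libraries (-0.14, approximate 95% interval -0.47 to 0.20). LOXL3 had 2.83 and 2.39 CPM in FOXD2 libraries, against 4.51 and 3.05 CPM in empty vector libraries, and did not pass (-0.52, SE 0.28, edgeR adjusted p = 0.11) except without empty vector replicate 2 (0.042). LOXL3 shares 14.3% of its exon bases with HTRA2 and LOXL1 shares 9.21% with LOXL1-AS1, both on the opposite strand.

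SERPINH1, the chaperone of the endoplasmic reticulum that binds folded procollagen, fell. It had 69.4 and 60.8 CPM in FOXD2 libraries, against 93.8 and 97.8 CPM in empty vector libraries (log2 fold change -0.56, SE 0.08, edgeR adjusted p = 1e-08). SERPINH1, PLOD2 and COL12A1 were the 3 members that were lower in FOXD2 cells, and each of them passed under all 13 alternative settings.

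Promoters of 22 of the 27 tested members were found in the RefSeq table (GRCh38.p14), those of COL1A1, COL5A2, COL6A1, COL9A3 and LOXL2 not being among them. In the 250 bases before each start, both strands were searched for 7 motifs, matches of which may overlap. A single start was used for each member, and other starts of these genes were not searched. The forkhead motif TGTTTAC was found in 0 of the 22, against 2.98% of 35116 promoters, and the AP-1 motif TGANTCA in 0, against 6.57%. With only 22 windows, a count of 0 cannot be told from such shares. The GC box GGGCGG was in 11 (42.6% of all promoters), CCAAT in 4 (32.0%), the hypoxia response core ACGTG in 4 (18.5%), the TATA box TATAAA in 3 (10.7%) and the TEAD motif GGAATG in 2 (11.9%). CCAAT was in COL4A5, COL4A6, P4HA2 and PLOD2, and ACGTG in COL12A1, COL4A3, P4HA1 and PLOD2. GC content of the windows ran from 44.0% in COL4A6 to 88.4% in COL18A1. The next sequences show LOXL4, which rose, beside COL12A1 and PLOD2, which fell, again 5′ to 3′ on the gene's strand and outside GENCODE exons. They are chr10:98268251-98268444, chr6:75206054-75206303 and chr3:146161185-146161434, all on the minus strand, and capitals mark the GC box, the CCAAT box, the hypoxia response core and the TEAD motif on either strand. LOXL4 carries GC boxes alone of these motifs, and the sequences of COL12A1 and PLOD2 hold a GC box as well as ACGTG. The window of SERPINH1, which also fell, held none of the 7 motifs. Whether any motif goes with the direction of change was not tested. A match is a run of letters and not a measured binding site.
LOXL4: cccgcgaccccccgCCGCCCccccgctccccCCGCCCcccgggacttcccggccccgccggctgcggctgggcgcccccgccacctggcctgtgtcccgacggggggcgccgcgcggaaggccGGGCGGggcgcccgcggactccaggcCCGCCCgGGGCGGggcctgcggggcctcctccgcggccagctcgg
COL12A1: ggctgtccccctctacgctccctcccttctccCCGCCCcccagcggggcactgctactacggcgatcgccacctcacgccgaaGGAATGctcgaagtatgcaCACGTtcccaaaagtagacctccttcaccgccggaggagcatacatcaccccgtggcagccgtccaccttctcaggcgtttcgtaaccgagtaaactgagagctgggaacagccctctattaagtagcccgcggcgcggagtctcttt
PLOD2: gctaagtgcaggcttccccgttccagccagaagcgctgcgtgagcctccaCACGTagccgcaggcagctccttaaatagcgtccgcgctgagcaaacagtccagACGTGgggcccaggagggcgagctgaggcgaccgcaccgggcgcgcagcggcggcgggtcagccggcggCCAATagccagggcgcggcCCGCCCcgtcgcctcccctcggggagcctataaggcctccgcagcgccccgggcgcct

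The machinery around these genes was read from a list of 48 others for collagen folding, secretion, cleavage, binding and breakdown. In FOXD2 cells 10 of the 31 that could be tested rose and 10 fell, and the median log2 fold change was 0.05. Of all genes tested 27.2% were higher and 26.4% lower, so the shares of 32.3% each way in the list lie near the background. ITGA10 and P3H2 each reached the filter level in both libraries of the higher group and in fewer than 2 of the other, as did LAIR1, which did not pass. ITGA10, a collagen-binding integrin chain of cartilage, had 4.11 and 4.24 CPM in FOXD2 libraries, against 0.644 and 0.729 CPM in empty vector libraries (2.59, SE 0.35, edgeR adjusted p = 8.4e-09). ITGA2, the collagen receptor chain of epithelia and platelets, had 132 and 133 CPM in FOXD2 libraries, against 60.2 and 51.4 CPM in empty vector libraries (1.25, SE 0.07, edgeR adjusted p = 1.9e-20). Other collagen receptors differed in direction: DDR1 rose (0.61, SE 0.06), MRC2 fell (-0.52, SE 0.15), and DDR2 did not pass (0.41, SE 0.32). ITGA1 rose by 1.30 (SE 0.30) but did not pass with limma on TPM (adjusted p = 0.20 and 0.21). BMP1, which removes the C-terminal propeptide of fibrillar procollagens, had 87.0 and 85.5 CPM in FOXD2 libraries, against 41.4 and 40.2 CPM in empty vector libraries (1.08, SE 0.08, edgeR adjusted p = 2.1e-17). Its enhancer PCOLCE rose by 0.84 (SE 0.25) and the related PCOLCE2 fell by 0.70 (SE 0.19), neither passing with DESeq2 (adjusted p = 0.11 and 0.065). For PCOLCE2 the call also ended without empty vector replicate 2 (0.057) or with limma on TPM (0.22 with either pseudocount).

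ADAMTS14, a protease for the N-terminal propeptide, had 7.45 and 6.15 CPM in FOXD2 libraries, against 21.2 and 21.3 CPM in empty vector libraries (log2 fold change -1.64, SE 0.14, edgeR adjusted p = 1.5e-14). The prolyl 3-hydroxylase P3H1 (-0.62, SE 0.11) and SEC23A, a coat protein of the vesicles that export procollagen (-0.63, SE 0.07), also fell. The prolyl isomerases FKBP10 (0.62, SE 0.08) and FKBP14 (0.76, SE 0.11) rose. The collagen-degrading cathepsin CTSK rose by 0.99 (SE 0.33) at 2.96 and 2.66 CPM in FOXD2 libraries, against 1.502 and 1.32 CPM in empty vector libraries, and did not pass without FOXD2 replicate 1 (adjusted p = 0.065), without empty vector replicate 2 (0.063) or with DESeq2 (0.18). P4HB, the partner subunit of prolyl 4-hydroxylase, did not pass, at 1286 and 1183 CPM in FOXD2 libraries, against 1181 and 1221 CPM in empty vector libraries. The proteoglycans DCN, BGN, LUM and FMOD, which coat fibrils, had no count.

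**Figure D5:**
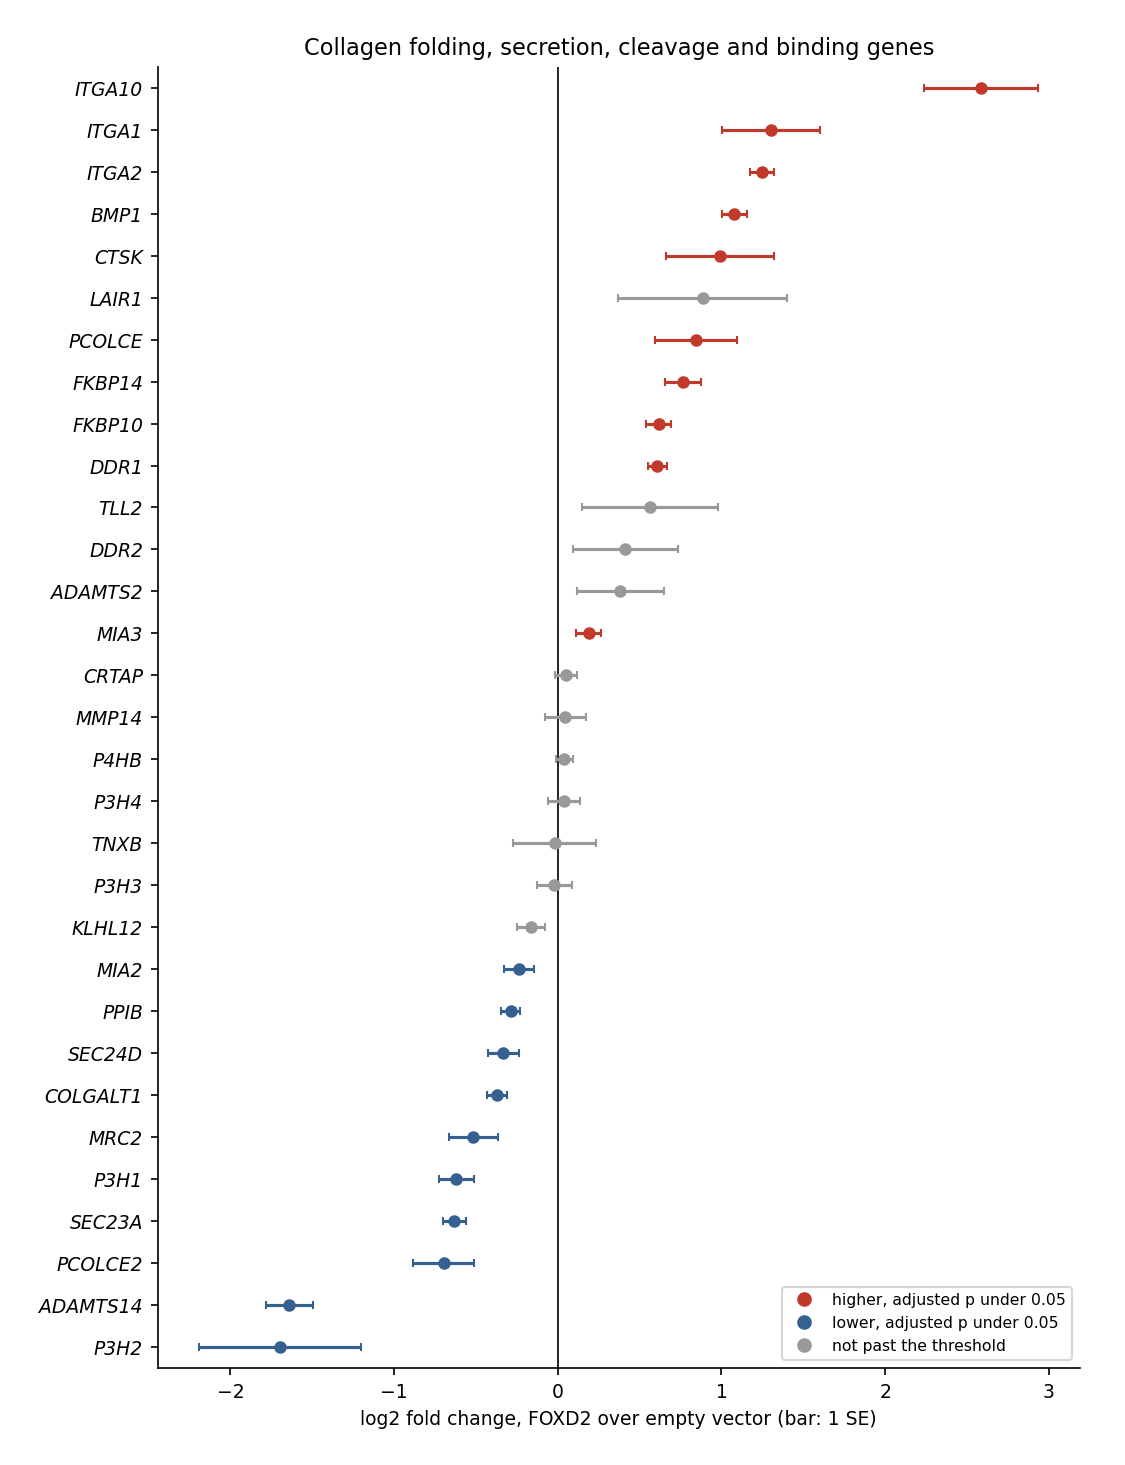
Log2 fold change of FOXD2 over empty vector for the 31 tested genes of collagen folding, secretion, cleavage, binding and breakdown, ordered by size, with bars of 1 SE and the same colours for higher, lower and not past the threshold. ITGA10 is at the top (2.59), and ADAMTS14 (-1.64) and P3H2 (-1.70) are at the bottom. ITGA10 and P3H2 passed the filter through 1 group.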

How the data were processed

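The submitters' processing notes name GRCh38 (hg38), RSEM 1.2.31 and STAR 2.7.2b; annotation release and strand setting are not given in the sources used here. The authors' tables hold RSEM expected counts, which can split reads among genes and were rounded here to whole numbers, and the authors' TPM, deposited per effective length. For the 54 members the deposited expected counts, written to 2 decimals, were exactly whole, so rounding changed none of them. RNA was polyA-selected and libraries made with a directional kit, per the labels' protocols. Symbols were matched for 60370 of 60683 identifiers, and positions came from GENCODE release 29.

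The contrast of FOXD2 over empty vector was tested by the edgeR 4.0.16 quasi-likelihood test in R 4.3.3 (TMM, filterByExpr, robust fit), with Benjamini-Hochberg adjustment over 14470 genes at 0.05. SE is the log2 fold change divided by the square root of F. A count of 0 allows 3 counts, and such limits cover counting error only. No pair of replicates agreed within sampling noise (chi-square per degree of freedom 3.91 in FOXD2 and 2.52 in empty vector libraries). Alternatives used limma 3.58.1 and DESeq2 1.42.0. The fit was also run on simulated data in which few genes changed. Since 53.5% of the genes tested were called here, that run does not gauge the error rate in these data. Tested members with a mean of at least 1 CPM are described one by one. Of the list of processing genes, the 12 called genes with the largest changes at that level are named. P3H2, P4HB, PPIB, DDR1, DDR2, MRC2, LAIR1 and the proteoglycans were added after their values were seen. The members and lists were chosen with earlier results of these data known.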

Additional observations from a re-analysis of the deposited data

How the results depend on the processing

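Of the 19 members past the threshold, 15 passed with the same sign in all 13 alternatives. The exceptions were COL4A4, COL6A3, COL27A1 and LOXL2, whose values stand in the report. With 1 library left out (the single library that remains is taken to spread as the other group does) 14 to 17 members were higher and 3 to 4 lower, and 12 to 18 were higher over all alternatives. Of all genes, DESeq2 placed 2412 higher, and limma on TPM placed 2436 (pseudocount 0.1) or 2442 (pseudocount 1) lower. Each of these 3 fits placed 6 processing genes lower, against 10. Uncalled signs changed for COL5A2 (-0.51 and -0.29 with limma on TPM at pseudocounts of 0.1 and 1, -0.32 to 0.37 with a library left out), LOXL1 (0.18 and 0.16 with limma on TPM), and, with a library left out, COL18A1 (-0.067 to 0.14) and P4HA1 (-0.31 to 0.00042). The cause was not tested. A pseudocount of 1 TPM lowers fold changes of weak genes by its construction, to 0.81 for COL4A6, 1.45 for LOXL4 and 1.11 for ITGA10.

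Replicate numbers were not shown to pair libraries: deviations of same-numbered libraries had a correlation of -0.099 over 14470 genes. With the replicate number as a block, 16 members were higher and 3 lower, and 3680 genes were higher and 3494 lower. Counts under 10 a library limit COL6A3 and the untested members.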

Other observations

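The authors' TPM and the counts parted for some members whose deposited RSEM effective length differed between libraries. The effective length of COL4A3 was 7830 and 4948 bases in FOXD2 libraries, against 5617 and 3785 bases in empty vector libraries. Its TPM was 0.80 and 1.88 in FOXD2 libraries, against 1.11 and 1.17 in empty vector libraries, where its CPM was 4.88 and 7.11 against 4.86 and 3.58. COL5A2 had an effective length of 6621 and 4472 bases in FOXD2 libraries, against 2207 and 5530 bases in empty vector libraries. For LOXL1 the lengths were 1027 and 757.5 bases in FOXD2 libraries, against 1220.4 and 938.3 bases in empty vector libraries. Whether these reflect a change of transcripts was not tested.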
